A study of Mus musculus with 14 samples.

Results

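The 9 genes described here belong to the cell's oxygen-sensing system: the hypoxia-inducible factor (HIF) subunits Hif1a and Epas1, the prolyl hydroxylases Egln1, Egln2 and Egln3, and 4 genes known as HIF targets, Adm, P4ha1, P4ha2 and Ndrg1. They were taken by symbol from the count table of a mouse left ventricle RNA-seq study, and all 9 were found among its 24054 genes. Each was also among the 13588 genes with enough counts to test.

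C56Bl6 mice (the strain as the labels spell it) were sampled in 3 groups. HFpEF-FoxO1-sh, with 5 libraries, had a high-fat diet with L-NAME, an inhibitor of nitric oxide synthases, for 6 weeks and an adeno-associated virus (AAV) carrying a hairpin against FoxO1 for 4 weeks. HFpEF-scr, with 4 libraries, had the same diet and a scrambled hairpin by AAV for the same times. The 5 control libraries came from a standard diet, labelled as 10 weeks, with no virus named. HFpEF stands for heart failure with preserved ejection fraction, which this diet is used to model. Diet, L-NAME and virus differ together between each HFpEF group and control, so their parts in those comparisons cannot be told apart. The labels give no age or sex, nor the serotype or promoter of the virus. They do not say whether libraries of a group came from separate animals, so the p-values below measure the spread between libraries, which may be partly technical.

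When oxygen is plentiful, the EGLN enzymes hydroxylate prolines of the HIF alpha subunits, and the von Hippel-Lindau protein then marks them for destruction. When oxygen is short the alpha subunits persist, pair with ARNT and bind short DNA elements near genes for glucose use, vessel growth, matrix synthesis and mitochondrial clearance. Control is thus mainly on the protein, which was not measured here. EGLN1 is the main oxygen sensor of most tissues, and Egln1 and Egln3 are themselves HIF targets, while Epas1 is known for its high expression in endothelium.

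The core of the HIF response element is read as ACGTG or GCGTG. Both were searched on both strands in the 250 bases before the RefSeq gene start (GRCm38.p6), where 7 of the 9 genes had an entry. All 7 windows held at least 1 match, while 38.6% of the 27025 mouse windows of that length did. The 7 windows held between 50.8% and 86% G and C, and the share of windows with a match at such a composition was not tested. The upstream stretches of the 3 genes on which the results below turn, and for which a window was at hand, are shown 5′ to 3′ on the gene's own strand, with matches in capitals. A match describes letters, not a bound site. For Egln1, 70 bases that the GENCODE vM21 annotation places inside the gene were left off.
P4ha1, chr10:59323046-59323295, plus strand: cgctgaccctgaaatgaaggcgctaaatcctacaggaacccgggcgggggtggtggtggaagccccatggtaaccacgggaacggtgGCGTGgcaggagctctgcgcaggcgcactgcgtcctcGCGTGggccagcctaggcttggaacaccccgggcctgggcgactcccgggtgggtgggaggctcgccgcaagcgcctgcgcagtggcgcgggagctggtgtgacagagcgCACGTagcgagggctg
Egln3, chr12:54203875-54204124, minus strand: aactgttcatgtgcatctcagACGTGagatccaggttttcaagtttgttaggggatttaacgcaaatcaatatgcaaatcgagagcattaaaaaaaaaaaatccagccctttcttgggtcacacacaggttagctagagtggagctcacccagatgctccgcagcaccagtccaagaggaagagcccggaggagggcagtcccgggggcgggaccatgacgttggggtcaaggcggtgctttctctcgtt
Egln1, chr8:124949325-124949504, minus strand: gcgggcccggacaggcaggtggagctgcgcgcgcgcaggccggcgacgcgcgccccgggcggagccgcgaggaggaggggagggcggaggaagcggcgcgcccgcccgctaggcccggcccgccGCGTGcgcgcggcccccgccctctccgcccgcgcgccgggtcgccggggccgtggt
P4ha1 had 3 matches, the nearest of them 16 to 12 bases before the start. Egln3 had 1, at 229 to 225 bases. The stretch of Egln1 printed had 1, at 126 to 122 bases before the RefSeq start, which lies 70 bases past the end of that stretch. Among the other windows, Egln2 had 4 matches, Hif1a and P4ha2 3 each, and Adm 2. The Hif1a and P4ha2 windows, counted from the RefSeq start, lie wholly inside the longer genes that GENCODE annotates. An ACGTG on each strand overlapped in Hif1a, where the letters read CACGTG.

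Depth ran from 13.2 to 21.2 M counts per library (M, 1000000), with control 1 the deepest. Cardiomyocyte markers were high in every library, at 113991 to 134765 CPM (counts per 1000000 after TMM scaling) summed over 10 genes, and adipocyte markers were near 0, at 1.93 CPM or less over 5. Foxo1, the gene the hairpin was made against, averaged 42.4 ± 2.56 CPM in HFpEF-FoxO1-sh, 43.5 ± 3.74 in HFpEF-scr and 44.0 ± 1.93 in control (SD, n = 5, 4 and 5). The log2 difference of Foxo1 between the hairpins was -0.04 ± 0.06 (SE, adjusted p = 0.780), and its sign turned to 0.02 without HFpEF-scr 2. HFpEF-scr 1 stood apart for these genes: it was the highest of its group in 8 of the 9, all but Hif1a. Control 1 was the highest of its group in 4, Egln1, Egln3, P4ha1 and P4ha2. Values that moved by over 1.5 times or changed call without either library are given below or with the alternatives.

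Few of the 9 transcripts changed by the test used, edgeR's quasi-likelihood F-test with Benjamini-Hochberg adjustment over all 13588 genes and a threshold of 0.05. In HFpEF-scr against control, 1 of the 9 was called, Ndrg1, which was higher, and 7.37% of all genes were called. In HFpEF-FoxO1-sh against HFpEF-scr, 1 was called, P4ha1, which was lower, and 3.58% of all genes were called. In HFpEF-FoxO1-sh against control, 1 was called, Egln1, which was higher, and 13.0% of all genes were called. Each count rests on a single gene, so none of them sets the 9 apart from other genes. At an unadjusted p under 0.05, 5 of the 9 passed in HFpEF-scr against control, 3 in HFpEF-FoxO1-sh against HFpEF-scr and 2 in HFpEF-FoxO1-sh against control, where 23.6%, 19.7% and 27.0% of all genes did.

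The direction over the 9 differed between the comparisons. In HFpEF-scr against control, 8 of the 9 had a log2 fold change above 0, with a median of 0.17. In HFpEF-FoxO1-sh against HFpEF-scr, 1 of the 9, Egln2, was above 0, with a median of -0.14. In HFpEF-FoxO1-sh against control, 5 of the 9 were above 0, with a median of 0.02. The median over all genes tested was 0.00 in each comparison. Of the 13588 genes, 6847, 6973 and 6680 were above 0, in the order given. Some of the signs of the 9 rest on differences near 0. With libraries left out 1 at a time, Adm fell to -0.14 and Hif1a to -0.044 in HFpEF-scr against control. Between the hairpins, Egln1 reached 0.089, Epas1 0.036 and Hif1a 0.012. The comparisons share libraries: a high value in HFpEF-scr raises the first and lowers the second.

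**Figure D1:**
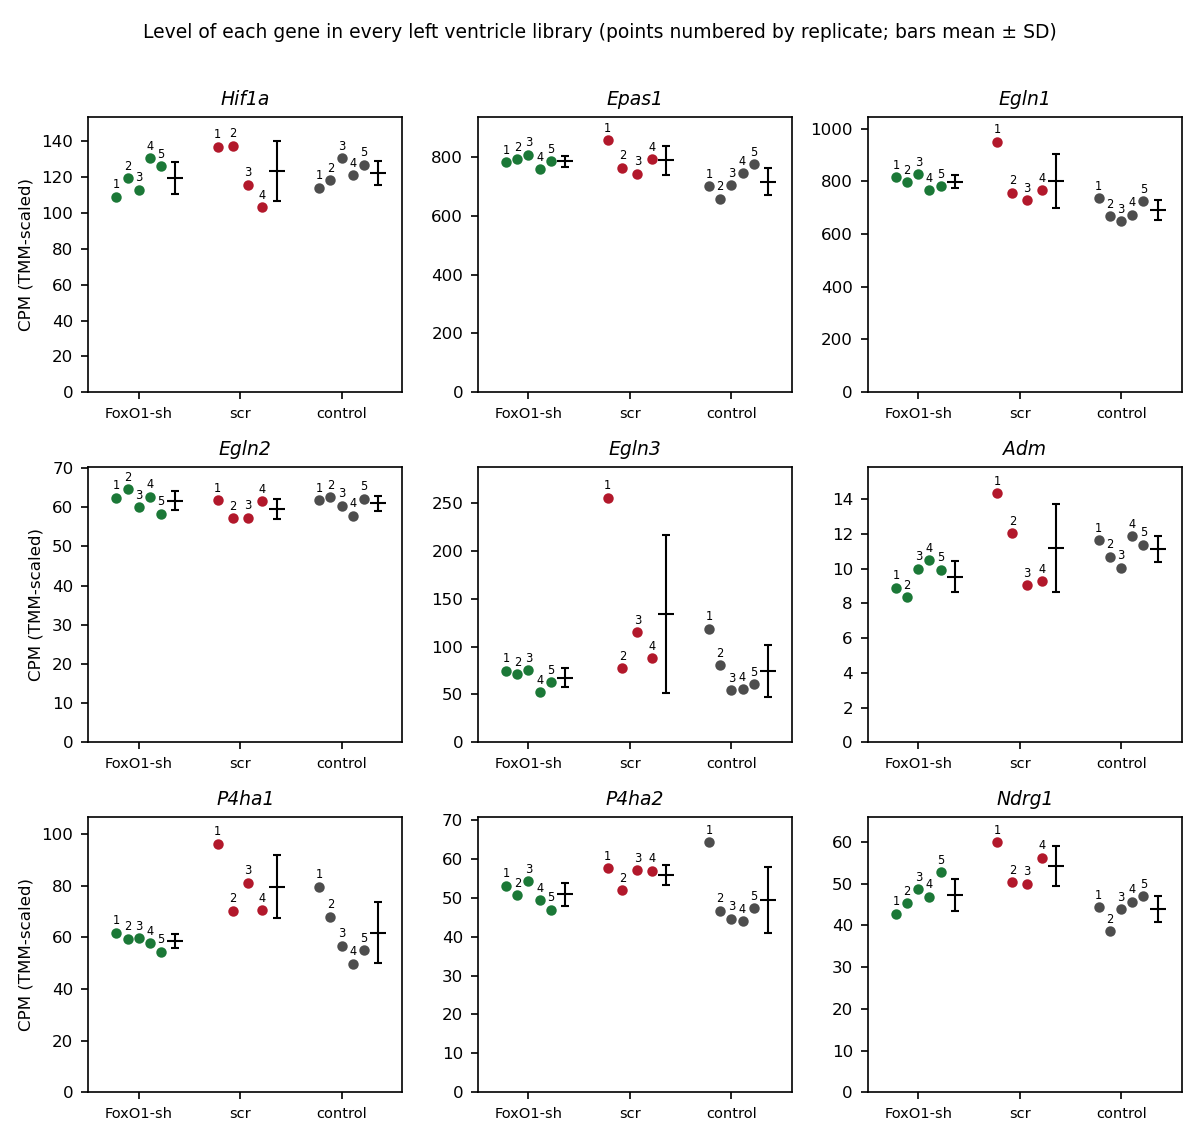
Level of each of the 9 genes in CPM (vertical axis, linear, from 0) in every library of HFpEF-FoxO1-sh, HFpEF-scr and control, with points numbered by replicate and bars for mean ± SD. Library 1 of HFpEF-scr stands above the others of its group for Egln1 at 951 CPM and Egln3 at 255 CPM, and the points of Hif1a and of Egln2 overlap across all 3 groups.

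Hif1a encodes the alpha subunit of HIF-1 and lies on chr12:73901375-73947530 (plus strand, GRCm38, as for all gene positions here). Hif1a had 109, 119, 113, 131 and 126 CPM in HFpEF-FoxO1-sh libraries 1 to 5, against 137, 138, 116 and 103 CPM in HFpEF-scr 1 to 4 and 114, 118, 131, 121 and 127 CPM in control 1 to 5. The 3 groups overlapped throughout, with both the highest and the lowest value in HFpEF-scr. The log2 difference was 0.01 ± 0.08 in HFpEF-scr against control (SE, adjusted p = 0.940), with a 95% interval from -10.1% to 13.3%. Between the hairpins it was -0.05 ± 0.08 (adjusted p = 0.803), with an interval from -13.7% to 8.78%. A change in Hif1a RNA larger than those bounds lies outside the intervals, and a smaller one lies within them. The smallest change that could be called here was not computed. Of its exon bases, 8.11% are shared with 2 other annotated genes, one of them antisense (Gm15283), and the sources do not say whether counting used the strand.

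Epas1 encodes HIF-2 alpha, the other oxygen-regulated subunit, and lies on chr17:86753700-86833410 (plus strand). Epas1 had 782, 794, 809, 759 and 787 CPM in HFpEF-FoxO1-sh 1 to 5, against 857, 765, 744 and 795 CPM in HFpEF-scr 1 to 4 and 701, 659, 704, 745 and 777 CPM in control 1 to 5. Both HFpEF groups lay mostly above the controls, but the highest controls reached into each. The log2 difference from control was 0.13 ± 0.05 in HFpEF-FoxO1-sh (adjusted p = 0.0720) and 0.14 ± 0.05 in HFpEF-scr (adjusted p = 0.0948), and neither passed the threshold. Without control 5 the HFpEF-FoxO1-sh difference was 0.16 and passed (adjusted p = 0.0374). Between the hairpins the difference was -0.01 ± 0.05, with an interval from -7.43% to 6.98% (adjusted p = 0.961).

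Markers of endothelium were set beside Epas1. The summed level of 10 endothelial markers was 1091 to 1157 CPM in HFpEF-FoxO1-sh, 1111 to 1610 in HFpEF-scr and 1184 to 1297 in control. Of the 10, Pecam1 was called higher in HFpEF-scr than in control, at 0.18 on the log2 scale (adjusted p = 0.0473), and lower in HFpEF-FoxO1-sh than in HFpEF-scr, at -0.20 (adjusted p = 0.0383). Cdh5 was called lower in HFpEF-FoxO1-sh than in control, at -0.21 (adjusted p = 0.0144). Both Pecam1 calls were lost in at least 11 of 18 alternatives, among them without HFpEF-scr 1 or 2, while the Cdh5 call held under all 19 alternatives run. In tissue RNA, fewer cells of a type and less RNA per cell cannot be told apart.

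Egln1 (PHD2), on chr8:124908587-124949324 (minus strand), was the most abundant of the hydroxylases and was called higher in HFpEF-FoxO1-sh than in control. Egln1 had 815, 796, 828, 767 and 782 CPM in HFpEF-FoxO1-sh 1 to 5, against 951, 757, 729 and 766 CPM in HFpEF-scr 1 to 4 and 736, 668, 649, 673 and 724 CPM in control 1 to 5. Every HFpEF-FoxO1-sh library lay above every control, whereas HFpEF-scr 3 lay below control 1. Egln1 averaged 798 ± 24.4 CPM in HFpEF-FoxO1-sh, 801 ± 101 in HFpEF-scr and 690.2 ± 37.9 in control (SD, n = 5, 4 and 5).

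HFpEF-FoxO1-sh exceeded control in Egln1 by 0.21 ± 0.06 on the log2 scale, or 15.6% (95% interval 0.08 to 0.34 in log2, adjusted p = 0.0348). Among all genes, 12.1% had groups that did not overlap in this comparison. The size of the Egln1 difference varied little, from 0.18 to 0.23, as each library was left out. The call was lost in 7 of those refits, without control 2, 3 or 4 (adjusted p = 0.0810, 0.0928 and 0.0646) or without HFpEF-FoxO1-sh 1, 2, 3 or 5 (0.0753, 0.0603, 0.0780 and 0.0533). The difference of HFpEF-scr from control was also 0.21 ± 0.06 and missed the threshold by edgeR (adjusted p = 0.0551). DESeq2 and a fit with a replicate block called this difference. It was 0.12 without HFpEF-scr 1 (adjusted p = 0.116), and it passed without HFpEF-scr 3 (0.25, adjusted p = 0.0380) or without control 1 (0.24, adjusted p = 0.0425). Between the hairpins Egln1 differed by -0.01 ± 0.07, with an interval from -9.45% to 9.61%.

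Egln2 (PHD1), on chr7:27158658-27166802 (minus strand), had the narrowest relative range of the 9. Egln2 had 62.5, 64.6, 60.1, 62.7 and 58.4 CPM in HFpEF-FoxO1-sh 1 to 5, against 61.9, 57.3, 57.3 and 61.6 CPM in HFpEF-scr 1 to 4 and 61.8, 62.6, 60.4, 57.9 and 62.2 CPM in control 1 to 5. All 14 libraries lay between 57.3 and 64.6 CPM, with the groups interleaved. The intervals ran from -4.89% to 7.50% for HFpEF-FoxO1-sh against control, from -2.92% to 10.6% for HFpEF-FoxO1-sh against HFpEF-scr and from -8.56% to 4.14% for HFpEF-scr against control.

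Egln3 (PHD3), on chr12:54178981-54203860 (minus strand), had the widest relative range of the 9. Egln3 had 74.8, 71.2, 75.5, 52.3 and 62.9 CPM in HFpEF-FoxO1-sh 1 to 5, against 255, 77.6, 115 and 87.8 CPM in HFpEF-scr 1 to 4 and 119, 80.9, 54.6, 55.8 and 60.9 CPM in control 1 to 5. Every HFpEF-FoxO1-sh library lay below every HFpEF-scr library, the nearest values being 75.5 and 77.6 CPM, and control 1 and 2 reached into the HFpEF-scr range. Groups failed to overlap in 8.34% of all genes in that comparison.

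The Egln3 difference between the hairpins was -0.99 ± 0.30 on the log2 scale (95% interval -1.62 to -0.36), which missed the threshold over all genes (adjusted p = 0.0710). Without HFpEF-scr 1 it was -0.47 (adjusted p = 0.272). It passed without HFpEF-scr 2 (-1.18, adjusted p = 0.0467) or HFpEF-scr 4 (-1.15, adjusted p = 0.0429). The difference of HFpEF-scr from control was 0.85 ± 0.30 (adjusted p = 0.0918). That value was 0.33 without HFpEF-scr 1 (adjusted p = 0.381), 1.09 without control 1 (adjusted p = 0.0302) and 0.57 without both (adjusted p = 0.0349). HFpEF-FoxO1-sh against control did not pass the test (-0.14 ± 0.28, adjusted p = 0.795), with a wide interval from -40.4% to 37.3%.

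Red cell markers moved with HFpEF-scr 1, the library with the highest Egln3. The summed level of 6 red cell markers was 700 to 1635 CPM in HFpEF-FoxO1-sh, 5755 in HFpEF-scr 1, 520 to 1074 in the other HFpEF-scr libraries and 991 to 1423 in control. Control 1, at 1020 CPM, was not high among the controls. The part of these transcripts in the Egln3 values was not tested.

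**Figure D2:**
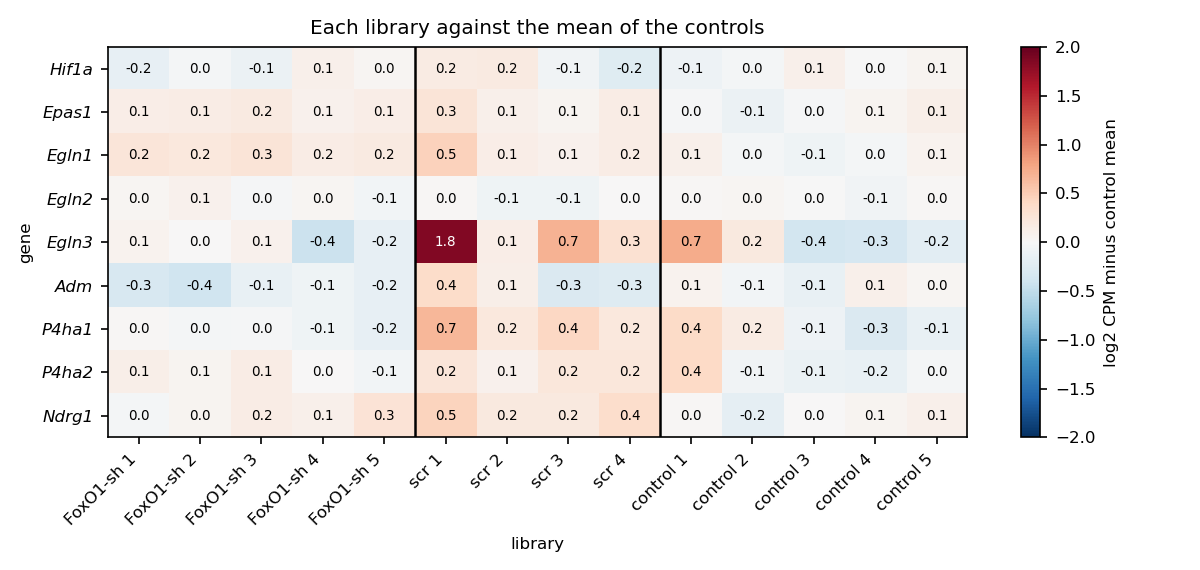
Log2 CPM of each of the 9 genes (vertical) in every library (horizontal) minus the control mean, with colour limits at -2 and 2. HFpEF-scr 1 is the deepest shade for Egln3, which had 255 CPM there, while Hif1a and Egln2 stay pale in all libraries.

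P4ha1, on chr10:59323296-59373304 (plus strand), encodes a catalytic subunit of the prolyl 4-hydroxylase that stabilises collagen, and it was called lower with the FoxO1 hairpin than with the scrambled one. P4ha1 had 61.7, 59.5, 59.7, 57.7 and 54.4 CPM in HFpEF-FoxO1-sh 1 to 5, against 96.2, 70.3, 81.2 and 70.4 CPM in HFpEF-scr 1 to 4 and 79.6, 68.0, 56.8, 49.8 and 55.1 CPM in control 1 to 5. Every HFpEF-FoxO1-sh library lay below every HFpEF-scr library, and the controls spanned both, with control 1 within the HFpEF-scr range. P4ha1 averaged 58.6 ± 2.76 CPM in HFpEF-FoxO1-sh, 79.5 ± 12.2 in HFpEF-scr and 61.8 ± 11.9 in control (SD, n = 5, 4 and 5).

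P4ha1 fell by 26.3% in HFpEF-FoxO1-sh against HFpEF-scr, a log2 difference of -0.44 ± 0.12 (95% interval -0.69 to -0.19, adjusted p = 0.0486). This call stood just inside the threshold and was lost in 10 of 18 alternatives, over which the adjusted p ran from 0.00788 to 0.143 and the difference from -0.53 to -0.34. Without HFpEF-scr 1, 2 or 3 the adjusted p was 0.143, 0.0505 and 0.0942. Without each of HFpEF-FoxO1-sh 1 to 5 it lay between 0.0792 and 0.0949. HFpEF-scr against control gave 0.36 ± 0.12 (adjusted p = 0.0704). That value was 0.47 without control 1 (adjusted p = 0.0112), 0.25 without HFpEF-scr 1 (adjusted p = 0.190) and 0.36 without both (adjusted p = 0.0195). DESeq2 and a fit with a replicate block also called P4ha1 higher in HFpEF-scr than in control. The HFpEF-FoxO1-sh difference from control was -0.08 ± 0.11 (adjusted p = 0.697).

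P4ha2, on chr11:54100095-54131665 (plus strand), encodes the second catalytic subunit of the same enzyme. P4ha2 had 53.0, 50.7, 54.2, 49.3 and 46.9 CPM in HFpEF-FoxO1-sh 1 to 5, against 57.6, 51.9, 57.0 and 56.9 CPM in HFpEF-scr 1 to 4 and 64.2, 46.7, 44.6, 43.9 and 47.3 CPM in control 1 to 5. Control 1 was above all HFpEF-scr libraries and the other 4 controls were below all of them. HFpEF-scr against control gave 0.17 ± 0.09 (adjusted p = 0.261), and without control 1 it gave 0.29 (adjusted p = 0.00488). Without HFpEF-scr 1 it was 0.16 (adjusted p = 0.372), and without both libraries 0.27 (adjusted p = 0.0111). HFpEF-FoxO1-sh against HFpEF-scr gave -0.14 ± 0.09 (adjusted p = 0.438).

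Fibroblast markers, among them collagen genes, were set beside P4ha1. Of all genes, 2.26% were called lower in HFpEF-FoxO1-sh than in HFpEF-scr and 6.28% lower than in control. In HFpEF-scr against control 3.66% were called higher. Of the 10 markers, 3 were called lower in HFpEF-FoxO1-sh than in HFpEF-scr, 7 were not called, and the median was -0.30. The 3 were Col1a1 (-0.80 ± 0.08, adjusted p = 8.89e-05), Col1a2 (-0.40 ± 0.07, adjusted p = 0.00701) and Col3a1 (-1.07 ± 0.12, adjusted p = 1.49e-04), which encode fibrillar collagen chains, and all 3 calls held under the 18 alternatives run. The same 3 were called lower in HFpEF-FoxO1-sh than in control, Col1a1 at -0.74 ± 0.08 (adjusted p = 2.61e-05), Col1a2 at -0.28 ± 0.07 (adjusted p = 0.0108) and Col3a1 at -1.07 ± 0.11 (adjusted p = 2.23e-05), a comparison in which P4ha1 was at -0.08. Between HFpEF-scr and control, where P4ha1 was at 0.36, Col1a1 was at 0.07 and Col3a1 at 0.00, and the 2 genes called higher were Lum, a collagen-binding proteoglycan (0.49 ± 0.10, adjusted p = 0.0113), and Pdgfra, a growth factor receptor (0.32 ± 0.09, adjusted p = 0.0472). The Lum call held under all 18 alternatives, and the Pdgfra call was lost in 11, among them without any 1 of the controls or without HFpEF-scr 2, 3 or 4, with an adjusted p up to 0.154. The summed level of the 10 was 1879 to 2369 CPM in HFpEF-FoxO1-sh, 2117 to 2671 in HFpEF-scr and 1962 to 2345 in control. Much of that sum was Gsn, which averaged 1252, 1328 and 1116 CPM in the same order. The mean log2 CPM of the 10 was 6.05 to 6.40 in HFpEF-FoxO1-sh, 6.48 to 6.69 in HFpEF-scr and 6.28 to 6.53 in control. In HFpEF-scr against control all 10 were above 0, with a median of 0.21. In HFpEF-FoxO1-sh against control 6 of the 10 were above 0, with a median of 0.02, and between the hairpins 0 were. The part of fibroblast RNA in the P4ha1 difference was not tested.

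The partners of the collagen hydroxylase showed less. P4hb, the subunit that P4HA1 and P4HA2 assemble with, averaged 226 ± 3.43 CPM in HFpEF-FoxO1-sh, 234 ± 15.1 in HFpEF-scr and 234 ± 11.7 in control. Of 8 tested genes of collagen hydroxylation and folding, only Plod1, a collagen lysyl hydroxylase, was called, lower in HFpEF-FoxO1-sh than in control (-0.30 ± 0.07, adjusted p = 0.0134), and by each of edgeR, DESeq2 and limma voom. None was called in the other comparisons by any of the 3 tools, while at an unadjusted p under 0.05 edgeR passed 2 between the hairpins and 0 in HFpEF-scr against control. The mean log2 CPM of the 8 was 4.82 to 4.87 in HFpEF-FoxO1-sh, 4.93 to 5.00 in HFpEF-scr and 4.93 to 5.01 in control. In HFpEF-FoxO1-sh against HFpEF-scr and against control, 1 of the 8 was above 0, with a median of -0.10 each time. In HFpEF-scr against control 4 of the 8 were above 0, with a median of -0.02. P4ha3, the remaining catalytic subunit, had at most 3 counts in a library and was not tested.

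Adm, on chr7:110627661-110629820 (plus strand), encodes adrenomedullin, a vasodilator peptide, and had the fewest counts of the 9, at 112 to 248 per library. Adm had 8.90, 8.36, 10.0, 10.5 and 9.93 CPM in HFpEF-FoxO1-sh 1 to 5, against 14.4, 12.1, 9.03 and 9.28 CPM in HFpEF-scr 1 to 4 and 11.6, 10.7, 10.0, 11.9 and 11.4 CPM in control 1 to 5. HFpEF-scr held both the highest values and values in the low range of HFpEF-FoxO1-sh. The difference of HFpEF-FoxO1-sh from control was -0.22 ± 0.12 (adjusted p = 0.233) and that from HFpEF-scr -0.23 ± 0.12 (adjusted p = 0.329), which was -0.08 without HFpEF-scr 1 (adjusted p = 0.761). For HFpEF-scr less control it was 0.00 ± 0.12, with an interval from -16.1% to 19.9%. Its receptor Calcrl averaged 32.1 ± 1.83 CPM in HFpEF-FoxO1-sh, 34.8 ± 5.70 in HFpEF-scr and 33.4 ± 2.59 in control. The receptor partner Ramp2 averaged 18.9 ± 1.80 CPM in HFpEF-FoxO1-sh, 18.3 ± 2.76 in HFpEF-scr and 17.1 ± 1.35 in control. Of 5 tested genes of this system edgeR and limma voom called none in any comparison and DESeq2 called 1, Ramp1, in HFpEF-scr against control, and at an unadjusted p under 0.05 edgeR passed 1, 0 and 1 in HFpEF-FoxO1-sh against control, HFpEF-FoxO1-sh against HFpEF-scr and HFpEF-scr against control.

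Ndrg1, on chr15:66929318-66969640 (minus strand), is a stress-responsive gene known to be induced by hypoxia, and it was called higher in HFpEF-scr than in control. Ndrg1 had 42.8, 45.3, 48.6, 46.8 and 52.7 CPM in HFpEF-FoxO1-sh 1 to 5, against 59.9, 50.4, 50.0 and 56.2 CPM in HFpEF-scr 1 to 4 and 44.3, 38.6, 43.9, 45.7 and 47.0 CPM in control 1 to 5. Every HFpEF-scr library lay above every control, and HFpEF-FoxO1-sh lay between them and overlapped each. Ndrg1 averaged 47.3 ± 3.74 CPM in HFpEF-FoxO1-sh, 54.1 ± 4.78 in HFpEF-scr and 43.9 ± 3.20 in control (SD, n = 5, 4 and 5).

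Ndrg1 was 23.2% higher in HFpEF-scr than in control (95% interval 10.9% to 36.8%), or 0.30 ± 0.07 on the log2 scale (adjusted p = 0.0198). Groups did not overlap in 8.93% of all genes in that comparison. The call was lost in 3 of 18 alternatives: without HFpEF-scr 4 (0.28, adjusted p = 0.0581), without HFpEF-scr 1 and control 1 together (0.25, adjusted p = 0.0587) and with an immediate early gene score as a covariate (0.20, adjusted p = 0.131). HFpEF-FoxO1-sh against HFpEF-scr gave -0.19 ± 0.07 (adjusted p = 0.131), and the difference of HFpEF-FoxO1-sh from control was 0.11 ± 0.07 (adjusted p = 0.344). Of the exon bases of Ndrg1, 8.43% are shared with the antisense Gm17035 and with Gm2895.

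Immediate early genes moved with the HFpEF-scr group. These are genes such as Fos that rise within minutes of stimulation. All 22 tested had a log2 fold change above 0 in HFpEF-scr against control, with a median of 0.82. Of the 22, 5 were called higher, where 3.66% of all genes were. Between the hairpins their median was -0.88, with 4 called lower in HFpEF-FoxO1-sh, where 2.26% of all genes were. Their mean log2 CPM ran from 3.32 to 5.49 in HFpEF-FoxO1-sh, from 4.53 to 6.69 in HFpEF-scr and from 3.21 to 5.96 in control. Since that mean ran higher in HFpEF-scr, a fit with it as a covariate cannot separate it from the difference of HFpEF-scr from another group. With that mean as a covariate, P4ha1 between the hairpins was -0.53 (adjusted p = 0.0507) and Egln1 in HFpEF-FoxO1-sh against control stayed called at 0.21 (adjusted p = 0.0382).

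**Figure D3:**
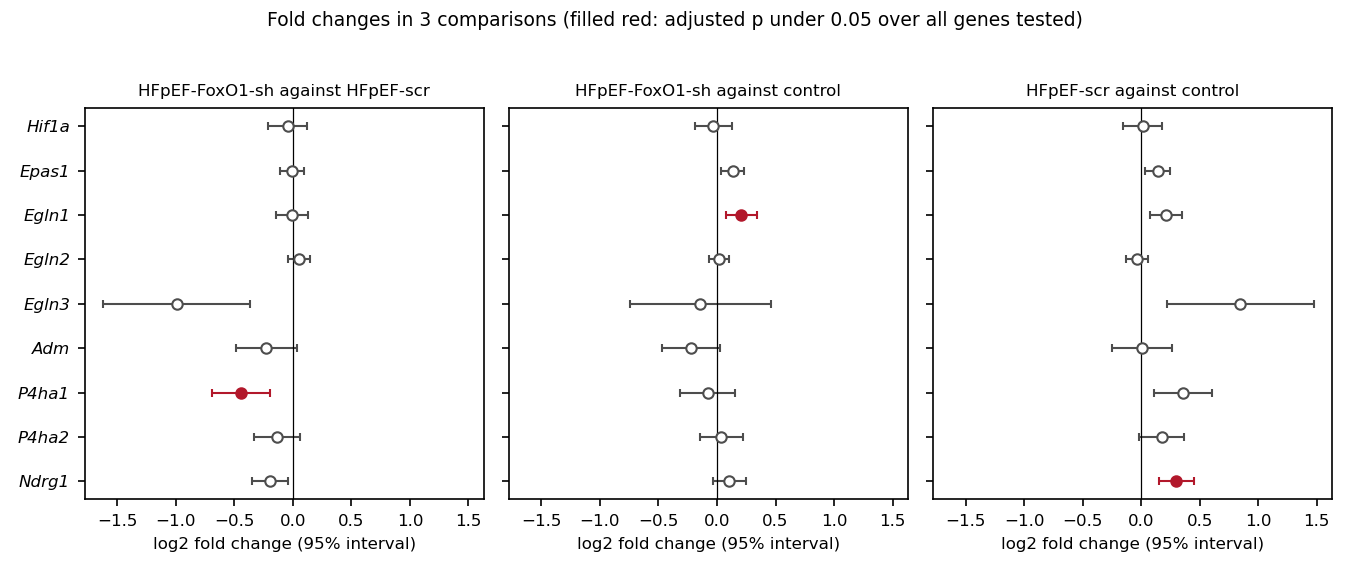
Log2 fold change with its 95% interval (horizontal) of each of the 9 genes (vertical) in the 3 comparisons, with filled red points for an adjusted p under 0.05. One gene is filled in each panel, P4ha1 at -0.44 between the hairpins, Ndrg1 at 0.30 in HFpEF-scr against control and Egln1 at 0.21 in HFpEF-FoxO1-sh against control, and the intervals of Egln3 are the widest.

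Levels between genes can be set side by side once divided by length. Per kilobase of exon, Egln1 was the most abundant of the 9, at 222 CPM per kb in HFpEF-FoxO1-sh, 223 in HFpEF-scr and 192 in control. Epas1 came next, at 141 CPM per kb in HFpEF-FoxO1-sh, 141 in HFpEF-scr and 128 in control, without overlap with Egln1 in any group. Hif1a was at 20.3 CPM per kb in HFpEF-FoxO1-sh, 20.9 in HFpEF-scr and 20.8 in control, and overlapped Egln2 in every group. Egln3 came after Epas1 in every group, at 25.3 CPM per kb in HFpEF-FoxO1-sh, 50.3 in HFpEF-scr and 27.9 in control, and it overlapped Egln2 in HFpEF-FoxO1-sh and control but not in HFpEF-scr. Adm, P4ha2 and Ndrg1 were lowest, between 5.89 and 8.95 CPM per kb as group means. These levels use merged GENCODE exons, so unexpressed isoforms lower a gene's value.

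Transcripts of the proteins that act with HIF showed no called change by edgeR. Of 14 tested partners and regulators none passed in any comparison, 2 passed at an unadjusted p under 0.05 in each, limma voom called none, and DESeq2 called 1, the ubiquitin ligase gene Siah2, between the hairpins. Arnt, the obligate partner, averaged 70.8 ± 2.44 CPM in HFpEF-FoxO1-sh, 71.7 ± 3.61 in HFpEF-scr and 67.0 ± 2.23 in control. Vhl averaged 10.4 ± 0.600 CPM in HFpEF-FoxO1-sh, 9.31 ± 0.978 in HFpEF-scr and 10.1 ± 0.987 in control. Hif1an, the asparagine hydroxylase that blocks HIF coactivators, averaged 137 ± 9.51 CPM in HFpEF-FoxO1-sh, 153 ± 7.23 in HFpEF-scr and 143 ± 5.01 in control. The list's medians were 0.03, 0.03 and 0.01 in HFpEF-FoxO1-sh against control, HFpEF-FoxO1-sh against HFpEF-scr and HFpEF-scr against control.

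Other known hypoxia-responsive genes were set beside the 9. Of 25 tested, 6 were called higher and 1 lower in HFpEF-scr than in control, with a median of 0.04, where 3.66% and 3.70% of all genes were called in those directions. In HFpEF-FoxO1-sh against control, 4 were called higher and 3 lower, with a median of -0.03, where 6.68% and 6.28% of all genes were. Between the hairpins none was called higher and 1 lower, with a median of -0.03, where 1.32% and 2.26% of all genes were. In each comparison at least 18 of the 25 were not called.

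Pdk1 encodes a kinase that inhibits pyruvate dehydrogenase. Its lowest, median and highest values were 331, 348 and 381 CPM in HFpEF-FoxO1-sh and 330, 339 and 352 in HFpEF-scr. In control they were 264, 277 and 286. Both HFpEF groups lay wholly above the controls. Pdk1 was higher by 0.35 ± 0.04 in HFpEF-FoxO1-sh (adjusted p = 5.92e-05) and by 0.30 ± 0.04 in HFpEF-scr (adjusted p = 9.46e-04). Mxi1, a MYC antagonist, was higher by 0.27 ± 0.04 in HFpEF-FoxO1-sh (adjusted p = 8.49e-04) and by 0.33 ± 0.05 in HFpEF-scr (adjusted p = 5.51e-04). The Pdk1 and Mxi1 calls against control held under all alternatives run.

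Kdm3a, a histone demethylase, was higher by 0.26 ± 0.08 in HFpEF-FoxO1-sh and by 0.32 ± 0.08 in HFpEF-scr than in control (adjusted p = 0.0343 and 0.0252). Bnip3l, a mitophagy receptor, was higher by 0.21 ± 0.06 in HFpEF-FoxO1-sh and by 0.22 ± 0.06 in HFpEF-scr than in control (adjusted p = 0.0249 and 0.0333). In HFpEF-scr Ddit4, an inhibitor of mTOR, was also called higher than in control, at 1.23 ± 0.30 (adjusted p = 0.0234) and Bnip3, the relative of Bnip3l, at 0.44 ± 0.13 (adjusted p = 0.0461), and neither passed between the hairpins (-0.57 ± 0.30, adjusted p = 0.306, and -0.17 ± 0.13, adjusted p = 0.506). These calls were less stable. All 4 in HFpEF-scr were also lost with the immediate early score as a covariate, a fit that cannot separate the score from the group difference. Without HFpEF-scr 1 the HFpEF-scr difference was 0.23 for Bnip3 (adjusted p = 0.0969) and 0.15 for Bnip3l (adjusted p = 0.0764), and without control 1 as well it was 0.12 for Bnip3l (adjusted p = 0.119). Over the alternatives the adjusted p reached 0.0907 and 0.114 for Kdm3a, 0.0616 and 0.139 for Bnip3l, 0.146 for Ddit4 and 0.245 for Bnip3. In HFpEF-FoxO1-sh, Kdm3a was not called without control 2, 3 or 4 or HFpEF-FoxO1-sh 2, 3 or 5, and Bnip3l was not called without control 1 or HFpEF-FoxO1-sh 2 or 4. In HFpEF-scr, Kdm3a was not called without control 2 or 3 or HFpEF-scr 4, and Bnip3l was not called without control 1, 2, 3 or 5 or HFpEF-scr 1 or 4. Bnip3 was not called without HFpEF-scr 1, 2 or 4 or any of control 2 to 5, and Ddit4 was not called without HFpEF-scr 2 or 4 or control 2 or 3.

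Slc2a1, the basal glucose transporter, averaged 15.9 ± 1.13 CPM in HFpEF-FoxO1-sh, 13.9 ± 2.89 in HFpEF-scr and 22.1 ± 3.28 in control. Slc2a1 was called lower than in control by both comparisons, at -0.47 ± 0.12 in HFpEF-FoxO1-sh (adjusted p = 0.0166) and -0.67 ± 0.13 in HFpEF-scr (adjusted p = 0.00663), under all alternatives run. Bhlhe40, a transcriptional repressor of the clock and hypoxia systems, averaged 56.6 ± 11.7 CPM in HFpEF-FoxO1-sh, 81.9 ± 16.9 in HFpEF-scr and 89.3 ± 4.29 in control. Bhlhe40 was lower in HFpEF-FoxO1-sh than in control at -0.66 ± 0.13 (adjusted p = 0.00313), under all alternatives run, and lower than in HFpEF-scr at -0.53 ± 0.13 (adjusted p = 0.0388), a call lost in 11 of 18 alternatives, with an adjusted p up to 0.104. Among those were the fits without HFpEF-scr 1, 3 or 4 and without HFpEF-FoxO1-sh 1, 3, 4 or 5.

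Vegfa, the angiogenic HIF target, had the same order of group means as P4ha1, without a call by edgeR. Vegfa had 416, 456, 408, 378 and 472 CPM in HFpEF-FoxO1-sh 1 to 5, against 675, 464, 546 and 497 CPM in HFpEF-scr 1 to 4 and 613, 431, 414, 392 and 457 CPM in control 1 to 5. HFpEF-scr 1 and control 1 were again the highest of their groups. HFpEF-FoxO1-sh against HFpEF-scr gave -0.36 ± 0.12 (adjusted p = 0.106), and only DESeq2 among the 18 alternatives put it past the threshold (adjusted p = 0.0462). Without HFpEF-scr 1 it was -0.24 (adjusted p = 0.304).

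**Figure D4:**
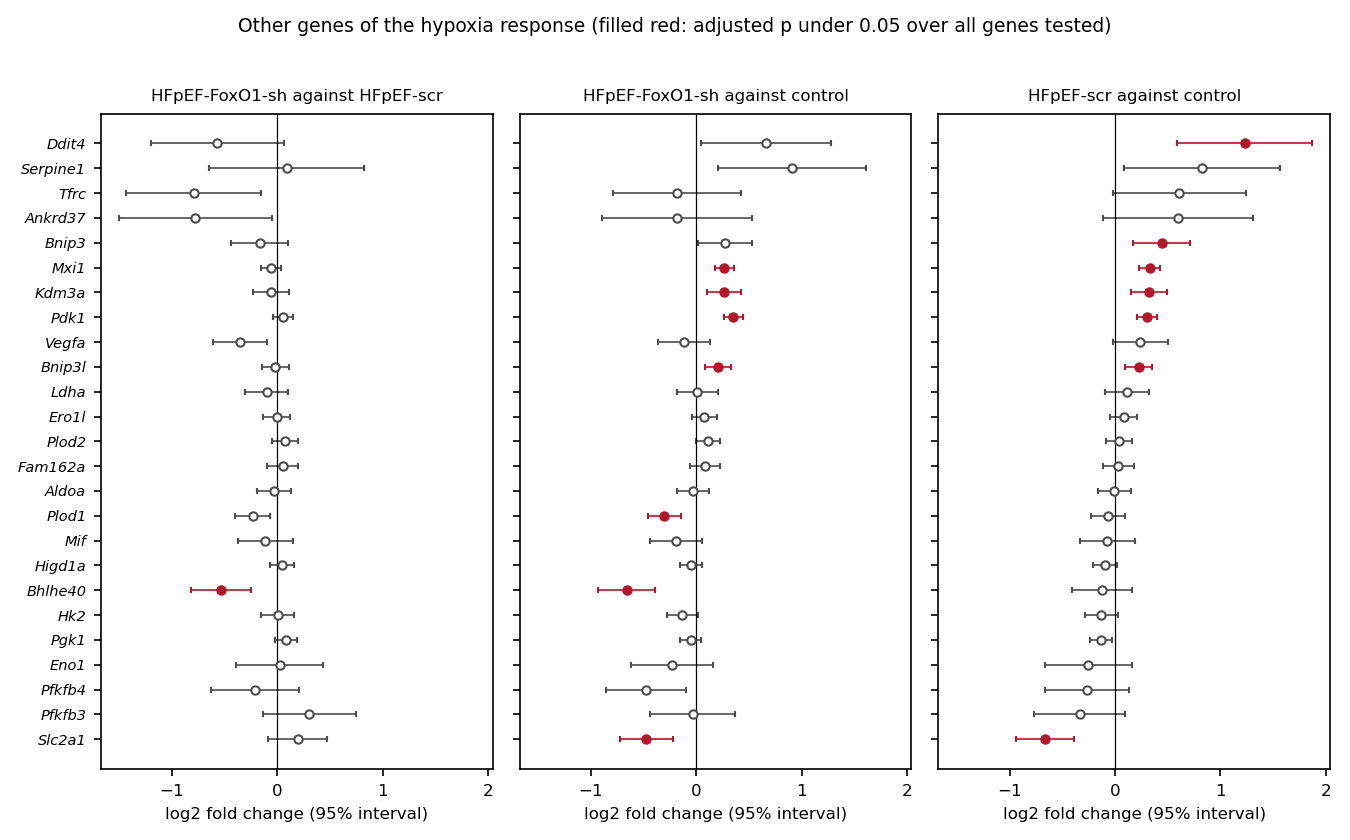
Log2 fold change with its 95% interval (horizontal) of the 25 other hypoxia-responsive genes tested (vertical) in the 3 comparisons, with filled red points for an adjusted p under 0.05. Pdk1 and Mxi1 are filled to the right in both comparisons with control, at 0.35 and 0.27 for HFpEF-FoxO1-sh, Slc2a1 is filled to the left in both, and Bhlhe40 is filled in the panel of the 2 hairpins.

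For each of the 9, the transcripts that varied most alike across libraries were sought among 11929 genes, by Pearson's r of log2 CPM after the group means were taken off, over 14 libraries. Egln3 was nearest to Adcy4 (r = 0.94) and Thbd (r = 0.94), P4ha1 to Tmem184b and Sez6l2 (both 0.92), and P4ha2 to Serpinh1 (0.95) and Thap2 (0.91). Egln1 was nearest to Fam86 and Phospho1 (both 0.90), Epas1 to Taf1b (0.88) and Smco1 (0.86), and Hif1a to Eml3 (0.91) and Ednrb (0.90). Egln2 was nearest to Sec13 (0.93) and Mrpl42 (0.91), Adm to Ppan (0.94) and Dock8 (0.89), and Ndrg1 to Lrig2 (0.89) and Notch1 (0.88). As the highest values among so many genes these describe likeness alone.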

How the data were processed

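The deposited table holds RSEM expected counts per gene for 14 left ventricle libraries. Per the labels' protocols, RNA was extracted with QIAzol, enriched by poly(A) and made into libraries with a Swift Biosciences kit. Bowtie2 2.1.0, RSEM 1.2.15 and mm10 are named in the submitters' processing notes, while the annotation, strand setting and filters are not given in the sources used here.

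Whole numbers, by rounding, went into edgeR 4.0.16 (R 4.3.3): filterByExpr, which kept 13588 of 24054 genes, TMM scaling, 1 quasi-likelihood fit over all libraries with a coefficient per group, and two-sided F-tests of 3 contrasts. The p-values of each contrast were adjusted by Benjamini-Hochberg across the 13588 genes, with a call at an adjusted p below 0.05. SE are the log2 fold change over the root of F, and intervals are 95%. CPM are per 1000000 after TMM, and log2 CPM have a prior count of 2. List genes were named by rule: those called, up to 6 a list and comparison by smallest p, defining partners of the 9 and Foxo1. Called immediate early, macrophage, pericyte and cardiomyocyte genes are given as counts only. Vegfa, Siah2, Ramp1, Ndrg3, Bnip3 and, in HFpEF-FoxO1-sh against control, Kdm3a lie outside that rule and were chosen after their values were seen. Gene positions and exon lengths are from GENCODE vM21. The 9 genes and all lists were chosen with earlier results of these data known.

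No libraries of a group were alike within sampling noise. Counts were also simulated from each gene's mean and fitted spread, with no outlying library and no change smaller than 1.5-fold. The share of 1.5-fold changes recovered was 80.8% for HFpEF-FoxO1-sh against control, 82.7% for HFpEF-FoxO1-sh against HFpEF-scr and 75.5% for HFpEF-scr against control. In the same order, 2.84%, 6.01% and 2.98% of the calls were false. Alternatives were DESeq2 1.42.0, limma 3.58.1 voom, other scaling and filters, fits of 2 groups, a replicate block, an immediate early gene score as a covariate and leaving out each library. Leaving out HFpEF-scr 1 and control 1 together was added after seeing the data.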

Additional observations from a re-analysis of the deposited data

Results flagged for a closer look

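In each of the 27 sets formed by 1 of the 9 genes and 1 group, the highest and lowest library were compared with the rest by Dixon's gap ratio at its 95% limit, and 3 sets had a library beyond it. Chance puts about 1 in 20 such sets there. Egln1 had 951 CPM in HFpEF-scr 1, far from the next at 766 CPM. P4ha2 had 64.2 CPM in control 1, far from the next at 47.3 CPM, and 51.9 CPM in HFpEF-scr 2, below the next lowest at 56.9 CPM. The Egln3 value of 255 CPM in HFpEF-scr 1 did not pass this limit.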

How the results depend on the processing

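Of 495 recomputed fold changes of the 9 genes, 70 changed sign or side of the threshold, and the causes were not tested. The genes called in HFpEF-FoxO1-sh against HFpEF-scr numbered 486, and 876 by DESeq2, 291 with a replicate block, 242 with the immediate early score as a covariate and 162 to 668 without each library. In HFpEF-FoxO1-sh against control they numbered 1760, and 1228 to 1683 without each library. In HFpEF-scr against control they numbered 1001, and 504 in a fit of the 2 groups alone, 401 with the score and 537 to 1106 without each library. Of the 9 genes, 0 were called between the hairpins by limma voom, 0 with the score and 0 to 2 without each library. In HFpEF-FoxO1-sh against control, 2 were called in a fit of the 2 groups (Egln1 and Epas1) and 0 to 2 without each library. In HFpEF-scr against control, 3 were called by DESeq2 (Egln1, Ndrg1 and P4ha1) and 4 with a replicate block (Egln1, Egln3, Ndrg1 and P4ha1). In that comparison 0 were called with the score, 0 to 5 without each library and 3 without HFpEF-scr 1 and control 1 together.

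Signs that turned were all of log2 differences that had not been called. In HFpEF-FoxO1-sh against control, without both of those libraries Egln3 was 0.10 and P4ha1 0.029, and without each library in turn Egln2 ran from -0.0022 to 0.035, Egln3 from -0.24 to 0.10, P4ha1 from -0.15 to 0.030 and P4ha2 from -0.0014 to 0.16. Between the hairpins, Egln1 was 0.0023 by limma voom, 0.033 with the score and 0.089 without both, Epas1 0.050 with the score and 0.036 without both, Hif1a 0.047 with the score and 0.010 without both, and Foxo1 0.029 with the score. Without each library Egln1 ran from -0.046 to 0.089, Epas1 from -0.033 to 0.036, Hif1a from -0.12 to 0.012 and Foxo1 from -0.075 to 0.015. In HFpEF-scr against control, Adm was -0.025 by limma voom, -0.12 with the score, -0.12 without both and -0.14 to 0.094 without each library, and Hif1a was -0.090 with the score, -0.067 without both and -0.044 to 0.088 without each library.

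Replicate numbers did not pair the libraries: over 13 same-numbered pairs the correlation of deviations ran from -0.19 to 0.11, with 1 pair over 0.1. With the replicate block the calls of P4ha1 between the hairpins, Egln1 in HFpEF-FoxO1-sh against control and Ndrg1 in HFpEF-scr against control held. Among the list genes named, the block ended the calls against control of Bnip3l in HFpEF-FoxO1-sh (adjusted p = 0.0582) and of Bnip3l, Pdgfra and Pecam1 in HFpEF-scr, and those of Bhlhe40 and Pecam1 between the hairpins. Without control 1, P4ha2 was 0.16 and Hif1a -0.056 in HFpEF-FoxO1-sh against control, and Egln2 in HFpEF-scr against control was -0.057 without HFpEF-scr 1, none called. Without HFpEF-scr 1 the genes called between the hairpins numbered 245, and Pecam1 in HFpEF-scr against control was 0.11. Counting precision is lowest for Adm.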

Other observations

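Of 3 relatives of Ndrg1, Ndrg4 was called lower and Ndrg2 higher than in control. Ndrg4, a heart and brain member of the family, averaged 266 ± 23.0 CPM in HFpEF-FoxO1-sh, 249 ± 19.9 in HFpEF-scr and 393 ± 25.5 in control (SD, n = 5, 4 and 5). Ndrg4 was lower than in control by -0.56 ± 0.06 on the log2 scale in HFpEF-FoxO1-sh (SE, edgeR adjusted p = 4.10e-05) and by -0.66 ± 0.07 in HFpEF-scr (adjusted p = 5.50e-05). Ndrg2, a muscle member, averaged 1367 ± 47.4 CPM in HFpEF-FoxO1-sh, 1272 ± 74.9 in HFpEF-scr and 1222 ± 38.3 in control, and was higher in HFpEF-FoxO1-sh than in control by 0.16 ± 0.04 (adjusted p = 0.0157). The difference of HFpEF-scr from control in Ndrg2 was 0.06 ± 0.04 (adjusted p = 0.448). Ndrg3 averaged 20.1 ± 2.63 CPM in HFpEF-FoxO1-sh, 20.1 ± 0.656 in HFpEF-scr and 18.1 ± 1.33 in control, and was not called against control, at 0.15 ± 0.08 in HFpEF-FoxO1-sh (adjusted p = 0.258) and 0.15 ± 0.09 in HFpEF-scr (adjusted p = 0.309). The Ndrg4 calls and the Ndrg2 call held under all alternatives run.

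Among the other marker lists, macrophage markers were lower in HFpEF-FoxO1-sh than in both other groups. Of 9 tested, 8 were called lower than in control, where 6.28% of all genes were. Against HFpEF-scr, 2 were called lower, where 2.26% of all genes were. HFpEF-FoxO1-sh and control also differ in diet, L-NAME and virus. In HFpEF-scr against control 1 of the 9 was above 0, with a median of -0.18 and 0 called. The summed level of these markers was 158 to 200 CPM in HFpEF-FoxO1-sh, 210 to 265 in HFpEF-scr and 228 to 308 in control. Of 9 pericyte and smooth muscle markers 3 were called higher in HFpEF-scr than in control, where 3.66% of all genes were. Their summed level was 1221 to 1314 CPM in HFpEF-scr and 1133 to 1286 in control. Of 10 cardiomyocyte markers 3 were called lower in HFpEF-scr than in control, where 3.70% of all genes were.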
